A study of Mus musculus with 17 samples.

Results

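Transcripts of 10 genes that control meiotic maturation of the mouse oocyte were followed across age and rapamycin. Some drive and others restrain its entry into metaphase of the second meiotic division or its exit from there. The genes were taken by name from a list that covers the Mos pathway, the B-type cyclins, control of the kinase CDK1 and regulators of the anaphase-promoting complex. All 10 were found among the 24491 gene symbols measured, and all 10 passed the filter on low counts in the 7 oocyte libraries. Each library held RNA of about 10 ovulated oocytes of wild-type CD1 mice, an outbred stock. The groups were 48-week-old females injected with rapamycin, an inhibitor of the mTOR kinase, over 40 weeks that began in week 8, at a dose of 2 mg/kg (n = 3 libraries), untreated 48-week-old females (aged, n = 2) and 4-week-old females (young, n = 2). All females were superovulated with the gonadotropins PMSG and hCG, at 10 IU of each in both 48-week groups and at 5 IU of each in the young group, so age and hormone dose cannot be told apart. Cumulus cells were stripped off with hyaluronidase, and cDNA was primed with oligo-dT. Whether the libraries of a group came from different animals is not stated in the labels, and the spread behind each p-value may therefore be partly technical.

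A fully grown oocyte rests in prophase of the first meiotic division with CDK1 held inactive by inhibitory phosphorylation, which WEE2 adds and CDC25B removes. Active CDK1 bound to a B-type cyclin is maturation-promoting factor and drives the oocyte into metaphase. The egg then waits for sperm because MOS, through the MAP kinase pathway, keeps EMI2, the product of Fbxo43, on the anaphase-promoting complex. This complex, with CDC20 or CDH1 (the product of Fzr1) as its activator, would otherwise mark cyclin B for destruction. Growing oocytes store many mRNAs with short poly(A) tails, and maturation lengthens the tails of some of them through U-rich elements that lie close to the polyadenylation signal.

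The ends of the transcripts are shown because stored maternal mRNAs are read through them and because the libraries were primed at the poly(A) tail. In the last 100 bases of the longest protein-coding transcript (GENCODE M21, GRCm38), a polyadenylation hexamer, AATAAA or ATTAAA, began within 40 bases of the end in 9 of 10 members, the exception being Fzr1. The same held for 78.6% of the 9516 tested genes with such a transcript. The letters TTTTAT or TTTTAAT of cytoplasmic polyadenylation elements, searched on the transcript strand, were found in 2 of 10 members, Wee2 and Cdc20, against 21.1% of those genes. Both features together occurred in the same 2 members and in 17.4% of genes. Windows of 30 bases are given 5′ to 3′ on the transcript strand for Mos, Ccnb1 and Plk1 and for the 2 members with those letters. Capitals mark the hexamer and the element letters.
Mos, chr4:3870661-3870690, minus strand: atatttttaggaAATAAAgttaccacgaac
Ccnb1, chr13:100778656-100778685, minus strand: ctttatgttgctAATAAAcatagttttcga
Plk1, chr7:122169843-122169872, plus strand: agctttatatatATTAAAatgtgtacatct
Wee2, chr6:40466766-40466795, plus strand: taTTTTAATccagatcattgtaAATAAAga
Cdc20, chr4:118432914-118432943, minus strand: tgtTTTTATTTTATtttttctAATAAAgtt
In Cdc20 the elements TTTTAT and TTTTAT overlap by 1 base and start 40 and 35 bases before the end, ahead of the hexamer at 22. In Wee2 TTTTAAT starts 46 bases before the end, and a further TTTTAT outside the window overlaps nothing of it and starts 18 bases before the end. No match says only that these letters are not in the last 100 bases.

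The oocyte libraries held 3912163 to 8334873 counts, and 3 counts corresponded to 0.348 to 0.807 CPM (read counts relative to library size, with TMM scaling). One library, rapamycin 1, stood apart. Its correlation with each other library, across genes and in log2 CPM, was 0.728 to 0.786, and the summed level of 12 oocyte markers was 3083 CPM in it against 25635 to 32628 CPM in the other 6. The summed level of 17 cumulus and granulosa cell markers was 176 CPM in rapamycin 1, against 56.1 to 102 CPM in the other 6. Within that list Inha (76.9 CPM) and Gja1 (31.3 CPM) were higher in rapamycin 1 than in any other library, and Cyp19a1 was lower, at 10.98 CPM against 24.5 to 80.2 CPM in the other 6. Summed blood and immune markers reached 2.15 to 5.89 CPM over the 7 libraries, and Cd3e, Hba-a1 and Hbb-bs were at 0 in every one. Whether these differences contribute to the members' values was not tested, and the comparisons below are given with and without rapamycin 1. In bulk RNA of this kind, fewer cells of a type and less RNA per cell cannot be told apart.

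**Figure D1:**
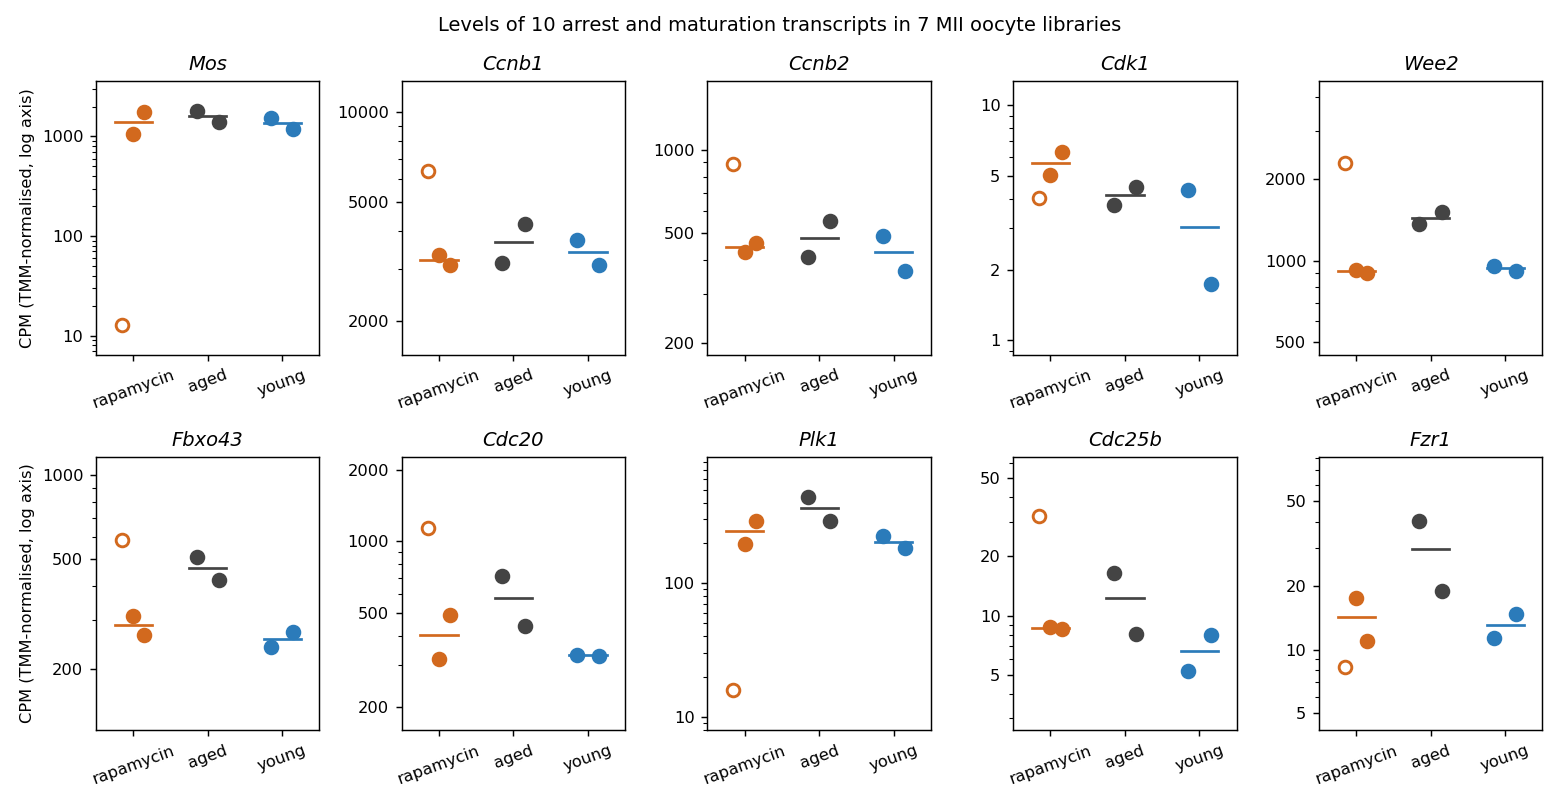
Level of each of the 10 transcripts in the 7 oocyte libraries, in TMM-normalised CPM on a log axis. Filled points are single libraries, the open circle is rapamycin 1, and lines are group means, which for rapamycin cover replicates 2 and 3 only. The open circle lies far below the other points for Mos and Plk1 and above them for Ccnb1, Ccnb2, Wee2, Fbxo43, Cdc20 and Cdc25b.

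Mos, the kinase that starts the MAP kinase pathway of the arrested egg (chromosome 4, 3870657 to 3872105, minus strand), had 12.9, 1069 and 1749 CPM in rapamycin libraries 1 to 3. It had 1803 and 1395 CPM in aged libraries and 1538 and 1179 CPM in young libraries. The 6 libraries other than rapamycin 1 overlapped in all 3 groups and spanned less than the distance from any of them to rapamycin 1. Aged over young, the log2 fold change was 0.23 ± 1.39 (SE) over the 7 libraries and 0.22 ± 0.26 without rapamycin 1, with edgeR adjusted p of 0.962 and 0.591. Rapamycin over aged, it was -0.76 ± 1.26 over the 7 libraries and -0.16 ± 0.26 without rapamycin 1, with edgeR adjusted p of 0.877 and 0.795.

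Ccnb1, which encodes cyclin B1, the main activating partner of CDK1 in the oocyte (chromosome 13, 100778650 to 100786570, minus strand), had the highest counts of the 10. It stood at 6368, 3321 and 3096 CPM in rapamycin libraries, at 3141 and 4238 CPM in aged libraries and at 3741 and 3091 CPM in young libraries. Rapamycin 1 was above all others, and the remaining 6 libraries overlapped between groups. Ccnb2, which encodes the related cyclin B2 (chromosome 9, 70407692 to 70421547, minus strand), had 886, 429 and 462 CPM in rapamycin libraries, 409 and 554 CPM in aged libraries and 488 and 364 CPM in young libraries. As for Ccnb1, rapamycin 1 was highest and the other libraries overlapped between groups. Aged over young, the log2 fold changes were 0.11 ± 0.43 for Ccnb1 and 0.18 ± 0.45 for Ccnb2 (edgeR adjusted p = 0.945 and 0.903), and both turned negative, at -0.12 and -0.053, without aged 2. Without rapamycin 1 they were 0.11 ± 0.20 and 0.17 ± 0.24 (edgeR adjusted p = 0.753 and 0.657).

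Within a library, the ratio of Ccnb1 to Ccnb2 counts per kilobase of exon spanned 2.43 to 3.09 over the 7 libraries. It was 2.61, 2.81 and 2.43 in rapamycin libraries, 2.79 and 2.78 in aged libraries and 2.78 and 3.09 in young libraries. Rapamycin 1 lay inside the range of the others here, although its level of each cyclin was above theirs. The annotation holds near-copies of Ccnb1: 81.1% of its 75-base words occur in no other annotated transcript, and the rest are shared with pseudogenes such as Ccnb1-ps and Gm12856, so some of its reads may have been dropped or placed elsewhere.

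Cdk1, the kinase of maturation-promoting factor itself (chromosome 10, 69335146 to 69352938, minus strand), had only 14 to 42 counts per library. It stood at 4.02, 5.05 and 6.31 CPM in rapamycin libraries, at 3.77 and 4.49 CPM in aged libraries and at 4.35 and 1.74 CPM in young libraries. Rapamycin 2 and 3 were above both aged libraries and both young libraries, while rapamycin 1 lay among the aged values. The log2 fold change aged over young was 0.46 ± 0.67 over the 7 libraries and 0.49 ± 0.59 without rapamycin 1 (edgeR adjusted p = 0.816 and 0.608), and it was -0.042 without young 2. Every 75-base word of Cdk1 was unique to it in the annotation.

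Wee2, the oocyte kinase that adds the inhibitory phosphate to CDK1 (chromosome 6, 40439088 to 40466813, plus strand), had 2294, 925 and 901 CPM in rapamycin libraries. It had 1370 and 1506 CPM in aged libraries and 956 and 919 CPM in young libraries. Both aged libraries were above both young libraries, rapamycin 2 and 3 were beside the young ones, and rapamycin 1 was highest of all. Aged over young, the log2 fold change was 0.62 ± 0.50 over the 7 libraries (edgeR adjusted p = 0.661) and 0.61 ± 0.18 without rapamycin 1 (edgeR adjusted p = 0.0555). Rapamycin over aged, it was -0.065 ± 0.45 over the 7 libraries and -0.64 ± 0.18 without rapamycin 1 (edgeR adjusted p = 0.976 and 0.226).

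Cdc25b, the phosphatase that removes that phosphate (chromosome 2, 131186949 to 131198497, plus strand), had 32.1, 8.76 and 8.56 CPM in rapamycin libraries, from 57 to 120 counts each. It had 16.4 and 8.07 CPM in aged libraries and 5.22 and 8.01 CPM in young libraries. The aged values lay above the young ones by a margin of 8.07 against 8.01 CPM, so the groups barely separated. The log2 fold change aged over young was 0.87 ± 0.78 (edgeR adjusted p = 0.694), and 0.85 ± 0.45 without rapamycin 1 (edgeR adjusted p = 0.228). Per kilobase, Cdc25b stood at 0.451% to 1.18% of Wee2 over the 7 libraries, and the aged libraries overlapped both other groups in this share, while every rapamycin library was above both young ones.

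Fbxo43, which encodes EMI2, the inhibitor that holds the anaphase-promoting complex at metaphase (chromosome 15, 36150060 to 36164884, minus strand), was the 1 member that edgeR called between ages when rapamycin 1 was left out. It had 581, 312 and 266 CPM in rapamycin libraries, 507 and 420 CPM in aged libraries and 241 and 273 CPM in young libraries. Both aged libraries were above both young libraries, with rapamycin 2 between them, rapamycin 3 among the young values and rapamycin 1 highest. Over the 7 libraries the difference aged over young did not pass, at 0.85 ± 0.45 (edgeR adjusted p = 0.495). Without rapamycin 1 Fbxo43 rose by 0.84 ± 0.21, a fold of 1.79 (edgeR adjusted p = 0.0362), and over the 4 aged and young libraries alone by 0.86 ± 0.22 (edgeR adjusted p = 0.0381, in a fit that called 12.5% of genes). Rapamycin over aged, it was -0.26 ± 0.40 over the 7 libraries and -0.66 ± 0.21 without rapamycin 1 (edgeR adjusted p = 0.866 and 0.226).

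Cdc20, an activator of the anaphase-promoting complex at the metaphase to anaphase transition (chromosome 4, 118432901 to 118437352, minus strand), had 1141, 318 and 490 CPM in rapamycin libraries. It had 714 and 441 CPM in aged libraries and 331 and 329 CPM in young libraries. Both aged libraries were above both young libraries, and the rapamycin libraries spanned the whole range. The log2 fold change aged over young was 0.81 ± 0.60 over the 7 libraries (edgeR adjusted p = 0.633) and 0.79 ± 0.28 without rapamycin 1 (edgeR adjusted p = 0.0927).

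Fzr1, whose product CDH1 activates the same complex in prophase-arrested oocytes (chromosome 10, 81366222 to 81378516, minus strand), had 8.30, 17.5 and 10.97 CPM in rapamycin libraries, 40.6 and 18.8 CPM in aged libraries and 11.3 and 14.7 CPM in young libraries. Aged 1 stood well above the rest, and both aged libraries were above every rapamycin and young library. The log2 fold change aged over young was 1.18 ± 0.57 over the 7 libraries and 1.16 ± 0.43 without rapamycin 1 (edgeR adjusted p = 0.466 and 0.106). It was the largest difference of the 10 in size in that comparison, and without aged 1 it was 0.54. Rapamycin over aged, it was -1.27 ± 0.51 over the 7 libraries and -1.03 ± 0.43 without rapamycin 1 (edgeR adjusted p = 0.730 and 0.298).

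Per kilobase, Cdc20 exceeded Fzr1 in every library. The ratio was 330, 43.6 and 107 in rapamycin libraries, 42.2 and 56.3 in aged libraries and 70.4 and 53.6 in young libraries. The groups overlapped, and rapamycin 1 had the highest ratio. Fbxo43 over Cdc20, the inhibitor over the activator, was 0.236, 0.454 and 0.251 in rapamycin libraries, 0.329 and 0.441 in aged libraries and 0.337 and 0.384 in young libraries, so this ratio overlapped between groups as well.

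Plk1, the Polo kinase that acts in spindle assembly and chromosome segregation (chromosome 7, 122159439 to 122169873, plus strand), had 15.8, 197 and 291.6 CPM in rapamycin libraries. It had 441 and 292.4 CPM in aged libraries and 224 and 182 CPM in young libraries. Both aged libraries were above both young libraries, rapamycin 2 lay among the young ones, rapamycin 3 was just below aged 2, and rapamycin 1 was far below every other library. Aged over young, the log2 fold change was 0.85 ± 1.00 over the 7 libraries and 0.84 ± 0.28 without rapamycin 1 (edgeR adjusted p = 0.775 and 0.0783). Rapamycin over aged, it was -1.12 ± 0.89 over the 7 libraries and -0.56 ± 0.28 without rapamycin 1 (edgeR adjusted p = 0.758 and 0.370).

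How the counting treated strand is not given in the sources used here, and 4 members share exon bases with a gene on the other strand: Cdc20 with Elovl1 (53 bases), Plk1 with Gm44985 (156 bases), Cdc25b with Spef1 (92 bases) and Fzr1 with Mfsd12 (4 bases). Of 75-base words, 95.6% were unique for Cdc20, which shared the rest with Gm7856. For Plk1 94.1% were unique, and the rest were shared with Gm44985 and Plk-ps1. Words were matched on both strands, so a gene on the other strand counts as sharing. For Fbxo43 and Cdc25b the share was 99.5%, and for Mos, Ccnb2, Cdk1, Wee2 and Fzr1 it was 100%.

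Taken as a list, all 10 members had a log2 fold change above 0 for aged over young oocytes, with a median of 0.71, against 4990 of 10083 genes and a median of -0.012. The members were chosen with earlier results of these data known, and their values rest on the same aged and young libraries. The direction held for 7 members in every fit that left out 1 library, while Ccnb1, Ccnb2 and Cdk1 turned as given above. In 6 members, Wee2, Fbxo43, Cdc20, Plk1, Cdc25b and Fzr1, the aged libraries were above the young ones without overlap, and 0 members did so in the other direction. Over all genes tested the aged libraries were higher without overlap in 29.6% and lower in 31.7%, and with 2 libraries against 2 an exact permutation test cannot go below p = 0.333. The members with groups apart include both activators of the anaphase-promoting complex, its inhibitor, the kinase and the phosphatase of the inhibitory site on CDK1, and Plk1. Mos, both cyclins and Cdk1 overlapped.

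The edgeR test over the 7 libraries called 0 of 10 members in aged over young oocytes, and it called 0.268% of all genes. At an unadjusted p under 0.05 it had 0 of 10 members and 1162 of 10083 genes, and DESeq2 called 0 of 10 members and 2.86% of genes. The biological coefficient of variation was 49.5% with rapamycin 1 and 28.1% without it. Without rapamycin 1 edgeR called 1 of 10 members, Fbxo43, where it called 11.4% of all genes, and 5 of 10 members had an unadjusted p under 0.05, as had 3138 of 10220 genes (30.7%). DESeq2 on the same 6 libraries called 3 members, Fbxo43, Plk1 and Wee2 (DESeq2 adjusted p = 0.00788, 0.0436 and 0.0386), and 16.0% of all genes. In each of these fits the members' number was read beside that share of all genes, and 1 of 10 is near 11.4%.

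**Figure D2:**
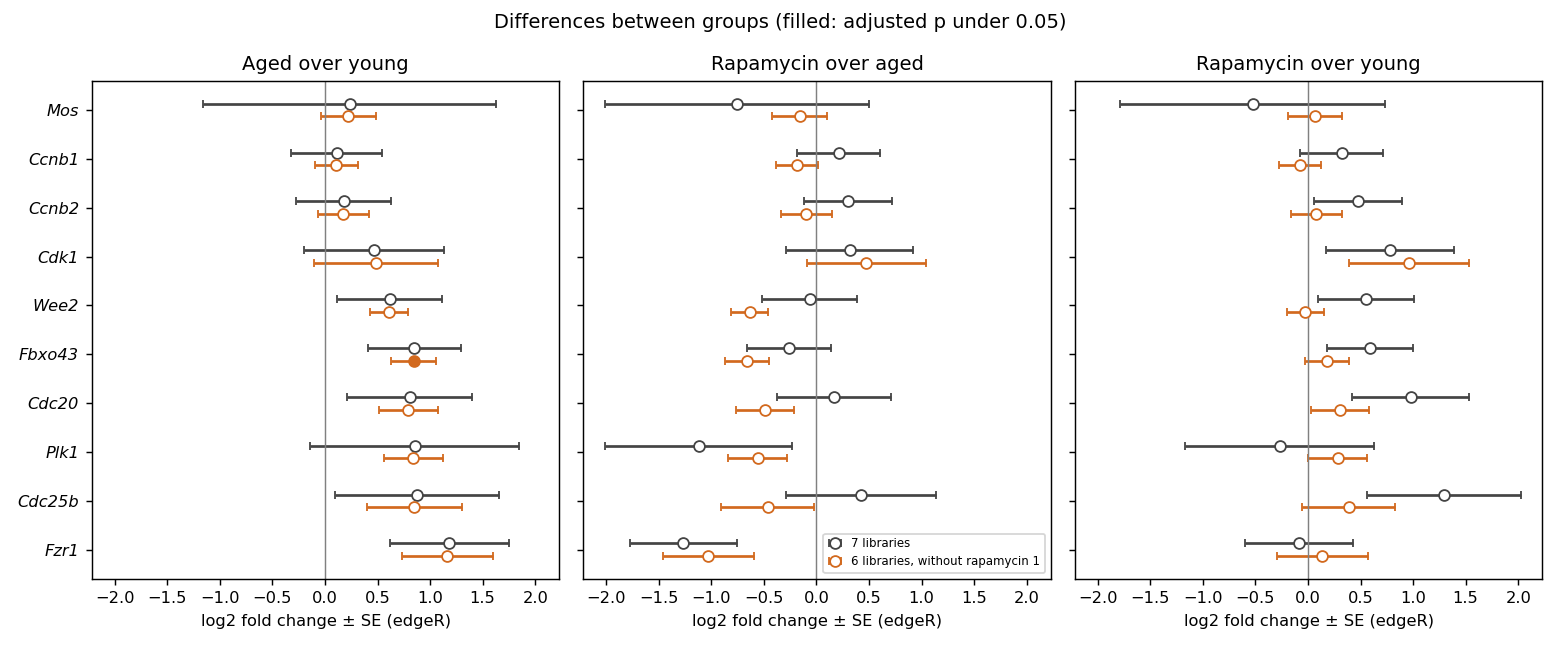
Log2 fold change with its standard error for each member in 3 comparisons, from edgeR over 7 libraries (grey) and over 6 libraries without rapamycin 1 (orange). The 1 filled point, Fbxo43 for aged over young without rapamycin 1, is the only value with an adjusted p under 0.05. The grey error bars of Mos and Plk1 are the widest.

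The question of the treatment was whether rapamycin oocytes differed from untreated oocytes of the same age. With rapamycin 1 in the fit, 5 of 10 members were above 0 with a median of 0.053, against 50.7% of all genes and a median of 0.014. EdgeR called 0 of 10 members and 0.0% of all genes. Fzr1 alone had an unadjusted p under 0.05, as had 603 of 10083 genes, and DESeq2 called 0 members and 0.109% of genes. Plk1 and Fzr1 were lower in every rapamycin library than in both aged libraries, 2 of 10 members where 13.9% of genes were, although Plk1 missed overlap by 291.6 against 292.4 CPM, and 0 members were higher where 11.7% of genes were. With 3 libraries against 2, the smallest p an exact permutation test allows is 0.1.

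Without rapamycin 1 the same comparison had 1 of 10 members above 0, the low-count Cdk1, and a median of -0.48. Of all genes 50.9% were above 0, with a median of 0.017. Wee2, Fbxo43, Plk1 and Fzr1 were then lower in rapamycin libraries 2 and 3 than in both aged libraries, 4 of 10 members against 23.0% of genes, and Cdk1 was higher, 1 of 10 against 23.0%. None of the 10 passed edgeR, which called 0.0587% of genes, and 3 members, Wee2, Fbxo43 and Fzr1, had an unadjusted p under 0.05, as had 1561 of 10220 genes (15.3%). DESeq2 on these 6 libraries also called 0 members and 1.66% of the 10220 genes, and it gave no adjusted p for Cdk1 and Cdc25b. Ccnb1, Ccnb2, Cdc20 and Cdc25b were above 0 with rapamycin 1 and below 0 without it, and Ccnb1 also turned without aged 1 (-0.022) and Cdc20 and Cdc25b without aged 2 (-0.17 and -0.043).

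Rapamycin over young, 7 of 10 members were above 0 with a median of 0.51 over the 7 libraries, and 8 of 10 with a median of 0.16 without rapamycin 1. Of all genes, 50.9% and 51.4% were above 0 in these fits, with medians of 0.017 and 0.019. EdgeR called 0 of 10 members in both fits, where it called 0.426% and 2.97% of all genes. At an unadjusted p under 0.05 there were 0 members in both, against 898 of 10083 genes (8.91%) and 1622 of 10220 genes (15.9%), and DESeq2 called 0 in both, where it called 2.41% and 5.09% of genes. Cdc25b was higher in every rapamycin library than in both young libraries, 1 of 10 members against 15.5% of genes, and without rapamycin 1 this held for Cdk1 and Cdc25b, 2 of 10 against 25.1%. For Cdc25b the groups barely separated in either case, with 8.56 CPM in rapamycin 3 (57 counts) against 8.01 CPM in young 2 (69 counts). No member was lower without overlap, against 17.9% of genes over the 7 libraries and 25.6% without rapamycin 1.

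The 3 comparisons share libraries, so their values are not independent: the aged libraries are on top in one and at the bottom in another. For Fbxo43 without rapamycin 1, the log2 fold change was 0.84 ± 0.21 aged over young, -0.66 ± 0.21 rapamycin over aged and 0.18 ± 0.21 rapamycin over young. The same 3 values for Wee2 were 0.61 ± 0.18, -0.64 ± 0.18 and -0.025 ± 0.18. For Plk1 they were 0.84 ± 0.28, -0.56 ± 0.28 and 0.28 ± 0.28, and for Fzr1 1.16 ± 0.43, -1.03 ± 0.43 and 0.14 ± 0.43. These 4 members were picked for groups apart in the first 2 comparisons, so nothing is read from the third value. Among the other members the third value was 0.96 in Cdk1, 0.39 in Cdc25b and 0.31 in Cdc20. Ccnb2 had 0.077, Mos 0.066 and Ccnb1 -0.078. Of the 12 differences of the 4 picked members only the Fbxo43 one between ages passed the edgeR threshold.

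Rapamycin 1 split the members. Set against the median of the other 6 libraries on the log2 scale, with a prior count of 2, Mos was lower by 6.79 units, a place with 0.0992% of all tested genes below it. Plk1 was lower by 3.98 units, with 3.64% of genes below it, and Fzr1 by 0.92 units. As plain CPM, the median of the other 6 was 114 times the level in rapamycin 1 for Mos and 16.3 times for Plk1. In contrast, 6 members were above all other libraries: Ccnb1 by 0.98, Ccnb2 and Fbxo43 by 0.99, Wee2 by 1.29, Cdc20 by 1.58 and Cdc25b by 1.91 log2 units over the median. Cdk1 lay inside the range of the others. Over all genes, 36.5% were below all 6 other libraries in rapamycin 1 and 29.1% above, and 360 genes (3.57%) lay more than 4 log2 units below the median, Mos among them. The members' summed share of gene counts, 0.965% in rapamycin 1 and 0.658% to 0.897% in the other 6, was highest in that library.

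**Figure D3:**
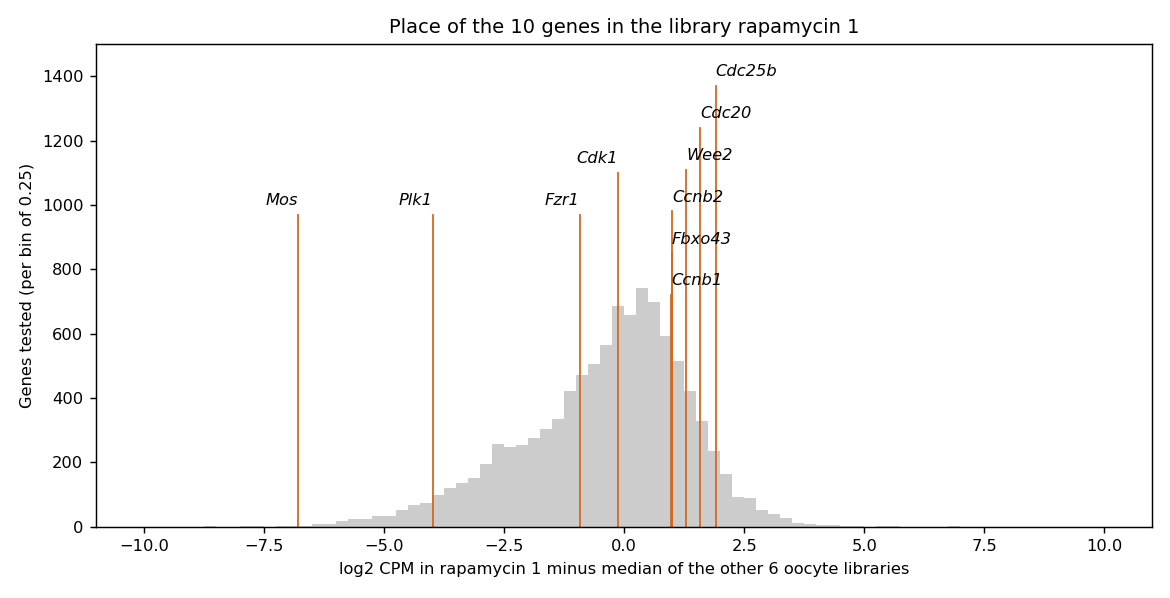
Histogram of log2 CPM in rapamycin 1 minus the median of the other 6 oocyte libraries over the 10083 tested genes, with the 10 members marked. Mos at -6.79 and Plk1 at -3.98 lie in the left tail, and 6 members from Ccnb1 at 0.98 to Cdc25b at 1.91 lie right of the centre.

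Among 1858 genes with a mean of at least 100 CPM, those whose centred log2 profile was closest to that of Mos over the 7 libraries were Clptm1l, Lbr, Abcb1b, Tbc1d14 and Plat, with a root mean square difference of 0.18 to 0.36 log2 units against a median of 2.38 over those genes. Lbr encodes a receptor of the inner nuclear membrane for lamin B, and Plat encodes tissue plasminogen activator. All 5 were low in rapamycin 1, which follows from the choice, since Mos was low there and that library entered the profile. Plat, for example, stood at 35.4 CPM in rapamycin 1 against 1689 to 5651 CPM in the other 6. Plk1 was the member most like Mos, at 0.99, and the other 8 members were at 2.09 to 3.04. Without rapamycin 1 the 5 genes were at 0.18 to 0.38, Plk1 was at 0.26, Cdc20 was also at 0.26, and the other members were at 0.30 to 0.63, so Plk1 stood out only with that library. A median over all genes was not taken without rapamycin 1, so whether the 5 genes remain unusually close to Mos is not shown.

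Compared per kilobase of exon over the 6 libraries other than rapamycin 1, the level ran from Mos (1005 ± 205 CPM per kilobase, SD, n = 6 libraries of 3 groups) and Ccnb1 (815 ± 110) to Wee2 (349 ± 85.7), Ccnb2 (294 ± 43.4), Cdc20 (234 ± 81.7), Plk1 (123 ± 43.4) and Fbxo43 (83.4 ± 26.0). Fzr1 (4.23 ± 2.46), Cdc25b (2.46 ± 1.01) and Cdk1 (0.868 ± 0.307) were far below. Neighbours in this order did not overlap between Ccnb1 and Wee2, between Fbxo43 and Fzr1, and between Cdc25b and Cdk1. All other neighbours overlapped. With the length of the longest transcript in place of all exons, Ccnb1 came first at 1381 CPM per kilobase and the rest kept their order.

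Hippocampus of adult offspring, 10 months old, gave 10 libraries, which were made with another kit and are given as a description. The mothers were aged (n = 3 libraries), aged and rapamycin-treated (n = 3) or young (n = 4). Each range below covers the 10 libraries and does not separate these groups. The egg transcripts were close to absent in these libraries. Mos had 0 to 2 counts, with 0 in 6 of 10 libraries, Wee2 had 0 to 2 counts and Fbxo43 1 or 2. The general cell cycle members were low too, with 1 to 12 counts for Ccnb1, 2 to 11 for Cdk1, 6 to 23 for Cdc20 and 2 to 40 for Plk1. Fzr1, which is active in non-dividing neurons, stood at 74.1 to 96.0 CPM in hippocampus, against 8.30 to 40.6 CPM in the oocyte libraries. Cdc25b stood at 8.46 to 16.4 CPM there, inside its range in oocytes.

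Beyond the 10, 59 further genes of the same machinery were set out in 6 lists, of which 55 passed the filter. For aged over young oocytes edgeR called 0 of the 55 over the 7 libraries. Without rapamycin 1 it called 9 of 55 (16.4%, against 11.4% of all genes), 6 higher (6.27% of all genes were) and 3 lower (5.16% were). In that fit 31 of 55 were above 0, against 48.9% of all genes. Rapamycin over aged, edgeR called 0 of the 55 with and without that library, and rapamycin over young it called 0 with it and 1, Ube2s, without it (1.82% of the 55, against 2.97% of all genes).

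The genes that rose with age in the 6-library fit sat in 3 lists. In the MAP kinase cascade downstream of Mos, 1 of 6 tested genes was called: Map2k2, the kinase MEK2, rose by 1.76 ± 0.33 log2 units (edgeR adjusted p = 0.0143). It had 25.2, 25.4 and 38.5 CPM in rapamycin libraries, 66.7 and 47.1 CPM in aged libraries and 16.5 and 16.7 CPM in young libraries, so all 3 groups were apart.

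In the list of cyclin and CDK partners with the Greatwall pathway, 2 of 11 tested genes were called higher and 1 lower. Cdk2, a kinase related to CDK1, rose by 1.78 ± 0.37 (edgeR adjusted p = 0.0200), with 7.50, 9.80 and 8.41 CPM in rapamycin libraries, 22.1 and 19.1 CPM in aged libraries and 5.00 and 6.73 CPM in young libraries. Ccnb3, a B-type cyclin that acts at anaphase of the first meiotic division, rose by 1.10 ± 0.28 (edgeR adjusted p = 0.0370). Cks1b, a small subunit that binds CDK1, fell by 0.80 ± 0.19 (edgeR adjusted p = 0.0291), with 467, 773 and 870 CPM in rapamycin libraries, 553 and 505 CPM in aged libraries and 951 and 881 CPM in young libraries. The aged libraries were high for Cdk2 and low for Cks1b relative to the young ones.

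Of 10 tested genes of CDK1 phosphorylation and prophase arrest, 3 were called, all higher. Pkmyt1, the kinase MYT1 that also phosphorylates CDK1, rose by 1.61 ± 0.35 (edgeR adjusted p = 0.0223), with 85.2, 33.1 and 33.2 CPM in rapamycin libraries, 111 and 55.4 CPM in aged libraries and 24.3 and 29.4 CPM in young libraries. Gpr3, the receptor that keeps cyclic AMP high in prophase oocytes, rose by 1.36 ± 0.36 (edgeR adjusted p = 0.0400), and Pde3a, the phosphodiesterase that degrades cyclic AMP there, rose by 1.00 ± 0.26 (edgeR adjusted p = 0.0388). The receptor and the enzyme act in opposite ways on cyclic AMP, and both were higher.

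Among 5 Polo kinases and activators, Bora, a cofactor that lets Aurora A activate PLK1, fell by 0.96 ± 0.25 (edgeR adjusted p = 0.0414) and Plk3 had 1.63 ± 0.56 and did not pass (edgeR adjusted p = 0.0870). Of 17 subunits and E2 enzymes of the anaphase-promoting complex, 5 were above 0, with a median of -0.29. Ube2s, the E2 enzyme that extends ubiquitin chains for the complex, fell by 1.31 ± 0.31 (edgeR adjusted p = 0.0305). It had 1.61, 23.2 and 24.8 CPM in rapamycin libraries, 25.0 and 29.2 CPM in aged libraries and 52.8 and 81.4 CPM in young libraries. The rapamycin and aged libraries were thus both below the young ones, and rapamycin over young Ube2s fell by 1.47 ± 0.31 without rapamycin 1 (edgeR adjusted p = 0.0361). The subunits Anapc13 and Anapc2 had -2.63 ± 0.86 and 0.88 ± 0.35 and did not pass (edgeR adjusted p = 0.0738 and 0.128). Anapc13 stood at 0.269 and 0.673 CPM in aged libraries, where 3 counts were 0.807 and 0.673 CPM. It had 2.17 and 3.94 CPM in young libraries, so its fold change rests on values at the floor.

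Of 6 genes of egg activation by calcium, 3 were above 0 and 0 were called (edgeR). The calcineurin subunits Ppp3ca and Ppp3r1 had -0.69 ± 0.36 and 0.52 ± 0.26 (edgeR adjusted p = 0.217 and 0.199). Cks1b, Pde3a and Ube2s were named after their values were seen, because edgeR called them. Some of these genes share sequence with other annotated transcripts on either strand. The share of unique 75-base words was lowest for Ppp3r1 (87.7%) among the named genes of the lists. It was 94.1% for Anapc13, 94.7% for Pde3a, 95.5% for Pkmyt1, 97.6% for Gpr3 and 97.8% for Ube2s.

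**Figure D4:**
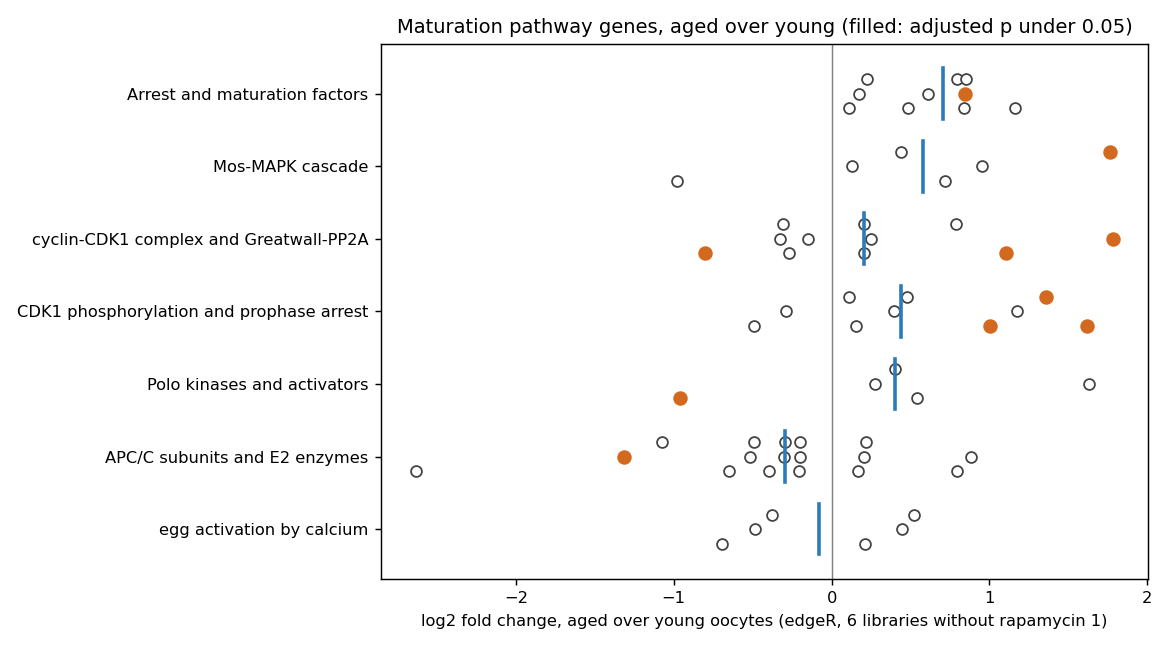
Log2 fold change aged over young without rapamycin 1 for the 10 members and the tested genes of 6 lists of the same machinery, with genes past the edgeR adjusted p of 0.05 filled. The members all lie above 0, while most of the 17 anaphase-promoting complex genes lie below 0, with 5 above.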

How the data were processed

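RNA sequencing counts of 7 oocyte and 10 hippocampus libraries were used. The deposited values are counts of reads per gene symbol, not normalised. Per the submitters' processing notes, STAR, HTSeq and mm10 were used by the authors. Not given in the sources used here were versions, annotation and strand setting. The 5 summary rows entered neither library sizes nor tests (reads outside genes came to 6.09% to 9.32% of the oocyte libraries). Oocyte libraries were filtered with filterByExpr, scaled by TMM and fitted with edgeR's quasi-likelihood test over 3 groups, with Benjamini-Hochberg adjustment over 10083 genes (10220 without rapamycin 1) and a threshold of 0.05. Errors of fold changes are the log2 fold change over the square root of F, and levels are TMM-normalised CPM. The code was tested on simulated counts. Counts are reads rather than molecules, so the floor of 3 counts covers counting error only. No libraries of a group agreed within sampling noise (chi-square per degree of freedom at least 16.3).

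Members and lists were chosen with earlier results of these data known. The text names the 10 members, the 2 genes of smallest unadjusted p from each list and the 5 genes most like Mos. A gene taken by this rule is not reported here. Places, lengths and transcript ends come from GENCODE M21 on GRCm38 (the assembly of mm10), in which 23574 of 24491 symbols matched 1 gene. Protein features were not analysed here. Alternatives were RLE size factors, no filter, a filter of 10 CPM, a fit of each pair of groups, a replicate block, DESeq2 and leaving out each library. Versions were R 4.3.3, edgeR 4.0.16, DESeq2 1.42.0, limma 3.58.1, Python 3.11.15, pandas 2.3.3 and matplotlib 3.10.9.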

Additional observations from a re-analysis of the deposited data

How the results depend on the processing

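Called members in aged over young oocytes, 0 over the 7 libraries, numbered 0 to 1 when 1 library was left out, 1 with only the 2 groups compared and 3 with DESeq2 without rapamycin 1, an alternative chosen after seeing the data. Genes called there, 27, became 167 with no filter, 1177 with only the 2 groups, 288 with DESeq2, 1637 with the added DESeq2 fit and 0 to 1168 with 1 library left out. Rapamycin over aged, 0 genes became 11 with no filter, 11 with DESeq2, 170 with the added fit and 0 to 6 with 1 library left out. Rapamycin over young, 43 became 179 with no filter, 25 at 10 CPM, 14 with only the 2 groups, 243 with DESeq2, 520 with the added fit and 0 to 304 with 1 library left out. The highest of each of these ranges was without rapamycin 1.

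Deviations of same-numbered libraries from their group means correlated little (aged and young r = -0.048, rapamycin and aged -0.092 and 0.0040, rapamycin and young -0.052 and -0.020). The aged and young groups hold 2 libraries each, so the deviations within each are mirror images. These values therefore cannot show whether the numbers pair libraries. With a replicate block, calls over all genes were 1 aged over young and 0 rapamycin over young, and Wee2 rapamycin over aged turned to 0.067. It also moved rapamycin over aged to -2.26 for Mos and -2.17 for Plk1 and rapamycin over young to -2.03 for Mos and -1.29 for Plk1, with no call. With the filter of 10 CPM, Wee2 rapamycin over aged was 0.057, and Cdk1 had no value.

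Other reversals came with libraries left out. Aged over young, the ranges were -0.12 to 0.32 for Ccnb1, -0.053 to 0.41 for Ccnb2 and -0.042 to 1.24 for Cdk1. Rapamycin over aged, they were -0.19 to 0.42 for Ccnb1, -0.097 to 0.50 for Ccnb2, -0.64 to 0.19 for Wee2, -0.49 to 0.52 for Cdc20 and -0.46 to 0.98 for Cdc25b, with -0.20, -0.11, -0.51 and -0.49 for Ccnb1, Ccnb2, Cdc20 and Cdc25b in the added DESeq2 fit. Rapamycin over young, they were -1.32 to 0.066 for Mos, -0.078 to 0.52 for Ccnb1, -0.025 to 0.80 for Wee2, -0.92 to 0.28 for Plk1 and -0.43 to 0.17 for Fzr1, with 0.054, -0.090, -0.037, 0.27 and 0.12 in the added DESeq2 fit. The cause was not tested. RLE size factors changed no member's direction or call. Cdk1, Cdc25b and Fzr1 had 14 to 151 counts per library.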
